A study of Mus musculus with 195 samples.

Results

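Transcripts of 10 genes of the amino acid stress response and of serine synthesis were followed in single mouse embryonic stem cells (ESCs) and neural stem cells (NSCs). The genes were listed by name from the pathway, with no threshold on their values, at a time when earlier results of these data were known: Atf4, Ddit3, Trib3, Phgdh, Psat1, Psph, Shmt2, Asns, Chac1 and Sesn2. All 10 were found in the gene table, which held 19736 genes. The cells were profiled by BATSeq, a method that tags each mRNA molecule at its poly(A) tail with a cell barcode and a unique molecular identifier and sequences its 3′ end. A transcript was thus counted once whatever its length, and levels are given as molecules per 10000 molecules assigned to genes.

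The ESCs were the 46C line, which carries a Sox1-GFP reporter and derives from E14tg2a cells, and the NSCs had been derived from ESCs. ESC-2i cells grew in serum-free medium with N2 and B27 supplements, 1 µM PD0325901 (an inhibitor of MEK), 3 µM CHIR99021 (an inhibitor of GSK3) and 10 ng/ml LIF. ESC-FCS cells grew in medium with 10% fetal calf serum, 10 ng/ml LIF, non-essential amino acids and pyruvate. NSCs grew in serum-free medium with N2, B27, non-essential amino acids, EGF and bFGF. Non-essential amino acids were thus listed as a supplement for ESC-FCS and NSC and not for ESC-2i. The base medium also differed, with DMEM/F12 for ESC-2i and NSC and GMEM for ESC-FCS. The amino acids held by each base medium are not given, so the supplement alone does not tell the amino acid supply. That supply, the other medium components and the cell state cannot be told apart. Small G0/G1 cells were sorted, 48 per population in 2 library batches of 24, and 33 ESC-2i, 33 ESC-FCS and 41 NSC cells were in the gene table. A further set of 48 ESC-FCS cells (ESC-FCS control), 2 pools of 48 ESC-2i cells and 1 pool of 48 ESC-FCS cells served as a check.

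ATF4 is a transcription factor whose mRNA is translated more when the initiation factor eIF2 is phosphorylated, as happens in cells short of amino acids or under stress in the endoplasmic reticulum. It acts largely with C/EBP partners at composite elements in the promoters of genes for amino acid synthesis, amino acid uptake and tRNA charging. Because this control acts on translation, the Atf4 mRNA level is not a measure of ATF4 protein. Serine synthesis starts from a glycolytic intermediate and feeds glycine and one-carbon units through mitochondrial SHMT2.

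The composite element was looked for in the promoters of the 10 genes as TGATGNAAN on both strands, in windows of 300 bases that run from 250 bases before the start of the RefSeq gene model (build GRCm38.p6). Of 32851 promoters of this length 3.95% held a match, against 3 of the 11 promoter entries of the 10 genes (Asns, Chac1 and Trib3; Psat1 has more than 1 entry). The strict form TGATGCAA, which lies within the longer motif, was in 0.895% of all promoters and in that of Chac1. The matches of the gene with the highest level in ESC-2i and of the gene concentrated in few ESCs follow, each in a window of 30 bases written along the gene's strand, 5′ to 3′, with the match in capitals.
Asns (chr6:7693213-7693242, minus strand, match 23 bases before the start): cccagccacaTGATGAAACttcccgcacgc
Chac1 (chr2:119351038-119351067, plus strand, match 194 bases before the start, on the opposite strand): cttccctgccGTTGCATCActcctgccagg
In Trib3 the match lay 13 bases after the start. A match is a description of these letters and no evidence of binding, and a promoter without one may hold other elements.

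NSCs held the fewest molecules, 151877 with a median of 3282 per cell, against 226683 with a median of 6375 for ESC-FCS and 368362 with a median of 10864 for ESC-2i. Intervals are 95% Poisson intervals, which cover counting error alone, and the labels name no separate cultures, so no p-value was computed between populations. For the pools, fewer cells of a type and less RNA per cell cannot be told apart. NSCs had 5.09% of molecules on mitochondrial genes, against 1.72% in ESC-2i and 1.95% in ESC-FCS. The sum of 6 neural stem cell markers was 48.1 per 10000 in NSCs, with Sox9 the only one at 0 in ESC-2i (sum 1.85) and with Sox9 and Olig2 at 0 in ESC-FCS (sum 1.01). The sum of 6 ESC markers was 0.0658 in NSCs against 20.4 in ESC-2i and 15.7 in ESC-FCS, and 5 of these markers (Nanog, Pou5f1, Zfp42, Tdgf1 and Dppa5a) had 0 molecules in NSCs. Pou5f1 and Dppa5a were sparse in ESCs too, with 19 and 7 molecules in ESC-2i and 4 each in ESC-FCS, so their 0 says little. ESC-2i and ESC-FCS control libraries carried the same 48 pairs of batch and cell barcode, and the 3 main populations shared no such pair.

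Together the 10 genes took 39.4 of every 10000 molecules in NSC, 24.1 in ESC-2i and 12.4 in ESC-FCS. Single NSCs spanned 10.4 to 74.8 with a median of 34.9, while ESC-2i cells spanned 10.9 to 62.5 around a median of 23.1 and ESC-FCS cells 0 to 34.8 around a median of 11.4. The order of the sums hid opposite patterns. Asns made up 606 of the 887 molecules of the 10 genes in ESC-2i, whereas in NSCs the largest part came from Psat1, Asns and Shmt2, with 144, 122 and 105 of 599 molecules.

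**Figure D1:**
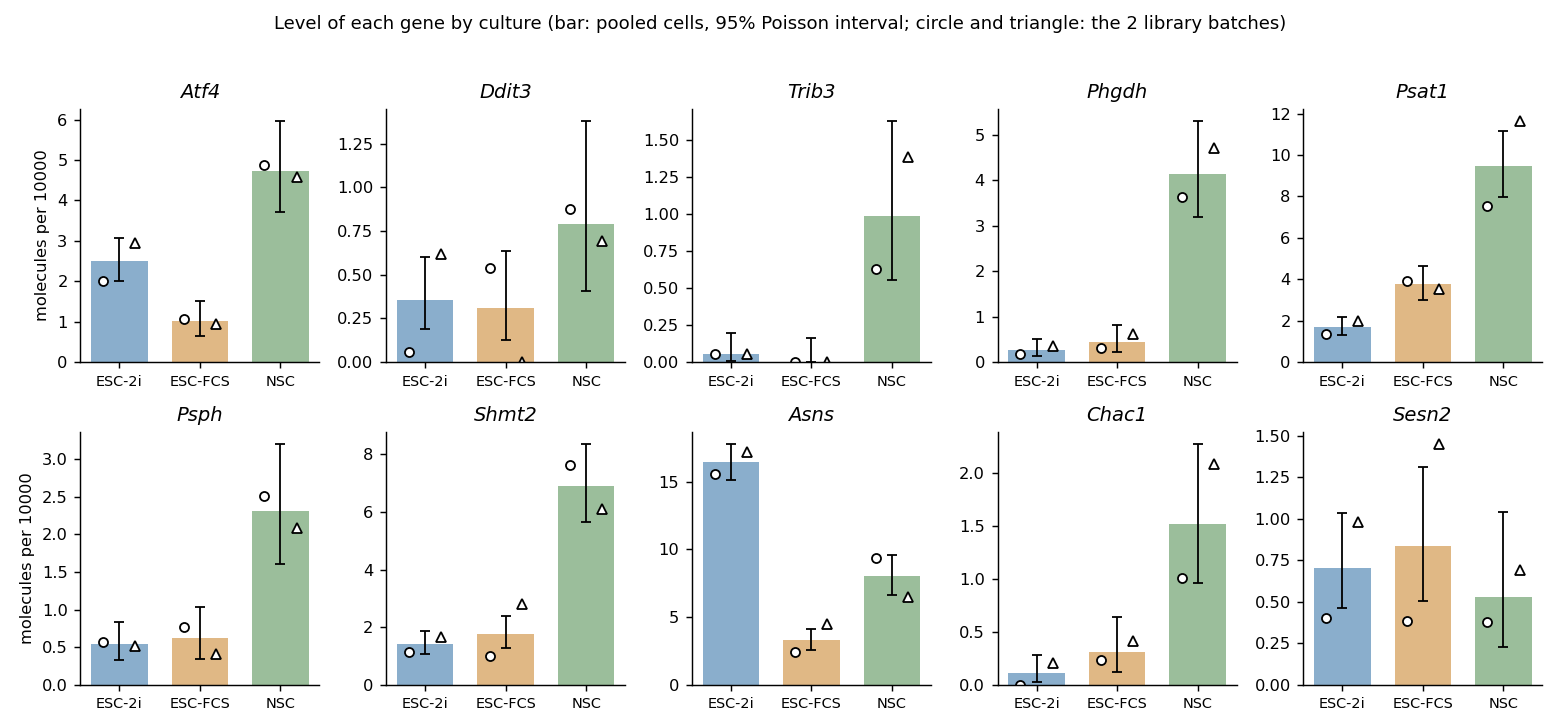
Molecules per 10000 (y axis, from 0) of each gene, with 1 bar per population. Bars are pooled cells with 95% Poisson intervals, circles and triangles the first and second library batch. Asns was highest in ESC-2i at 16.5, while Atf4, Ddit3, Trib3, Phgdh, Psat1, Psph, Shmt2 and Chac1 were highest in NSC.

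Gene positions are those of GRCm38. Asns (chr6:7675169-7693254, minus strand) encodes asparagine synthetase, which makes asparagine from aspartate with glutamine as nitrogen donor. It was found in all 33 ESC-2i cells, with 4.10 to 45.2 molecules per 10000 in a cell (median 15.4). In ESC-FCS it was found in 23 of 33 cells, from 0 to 9.94 (median 2.57), and in NSC in 33 of 41 cells, from 0 to 21.6 (median 6.87). The ranges of single cells overlapped between all populations, but only the lowest ESC-2i cells reached into the ESC-FCS range. Pooled ESC-2i cells had a level of 16.5 (15.2 to 17.8), NSCs one of 8.03 (6.67 to 9.59) and ESC-FCS cells one of 3.31 (2.60 to 4.15). It was thus 4.97-fold (3.91 to 6.41) lower in ESC-FCS and 2.05-fold (1.68 to 2.51) lower in NSC than in ESC-2i. The batches of the main cells, at 15.6 and 17.2 for ESC-2i, 9.40 and 6.52 for NSC and 2.46 and 4.46 for ESC-FCS, did not overlap between populations. Of the ESC-FCS control cells the second batch, at 7.23, lay between the NSC batches. The ratio of NSC to ESC-2i lay at the 2-fold limit and was within it when mitochondrial genes were left out of the total (log2 ratio -0.98) or cells under 2000 molecules were left out (log2 ratio -0.97).

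Phgdh, Psat1 and Psph encode the enzymes of the serine synthesis pathway in the order of its steps. All were higher in NSC than in the main single cells of both ESC cultures. Phgdh (chr3:98313170-98339990), the dehydrogenase of the first step, had 63 molecules in NSC (level 4.15, 3.19 to 5.31), 10 in ESC-FCS (0.441) and 10 in ESC-2i (0.271). It was seen in 8 of 33 cells of each ESC culture and in 32 of 41 NSCs, although the NSCs were the shallowest cells. The NSC level was 15.3-fold (7.79 to 33.4) that of ESC-2i and 9.40-fold (4.79 to 20.6) that of ESC-FCS. Both NSC batches, at 3.63 and 4.72, were above all batches of the main ESC cells, which ran from 0.172 to 0.622. The ESC-FCS control cells were 2.54-fold and the ESC-FCS pool, at a level of 2.01, 4.56-fold above the main ESC-FCS cells. Both sets stayed below the NSC level. The NSC excess over ESC-FCS was thus smaller against them than the 9.40-fold of the main cells.

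Psat1 (chr19:15904678-15947337), the aminotransferase of the next step, was the most abundant of the 10 genes in NSC. The NSC level was 9.48 (8.00 to 11.2), that of ESC-FCS 3.75 (3.00 to 4.64) and that of ESC-2i 1.68 (1.29 to 2.16). From a lowest value of 0 in each population, single cells reached 28.6 among NSCs (median 9.99), 14.5 among ESC-FCS cells (median 2.70) and 7.98 among ESC-2i cells (median 1.48). ESC-FCS was 2.23-fold (1.59 to 3.14) above ESC-2i, and NSC 5.63-fold (4.15 to 7.71). One ESC-FCS cell, B12, held 18 of the 85 molecules, and without the highest cell of each culture the ESC-FCS ratio was 2.01. Batches were at 1.38 and 1.96 for ESC-2i, 3.92 and 3.53 for ESC-FCS and 7.52 and 11.7 for NSC, with no overlap. The pools differed from this. The ESC-2i pools were at 11.6 and 7.92, on either side of the NSC level, so the NSC excess over ESC-2i was seen against single cells and not against pools. The order of the ESC cultures was the opposite there too, with the ESC-FCS pool at 4.13.

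Psph (chr5:129765558-129787449), the phosphatase that releases serine, was at 2.30 (1.61 to 3.21) in NSC from 35 molecules, at 0.618 in ESC-FCS from 14 and at 0.543 in ESC-2i from 20. The ESC cultures differed by 1.14-fold (0.532 to 2.37), and NSC was 4.24-fold (2.38 to 7.76) above ESC-2i. In NSC the 35 molecules lay in 16 of 41 cells, fewer than the 22.0 cells that an equal share per molecule would give, and 7 of them were in cell D6.

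Shmt2 (chr10:127517123-127522444) encodes the mitochondrial serine hydroxymethyltransferase, which turns serine into glycine. Its level was 6.91 (5.66 to 8.37) in NSC, 1.76 (1.26 to 2.40) in ESC-FCS and 1.41 (1.05 to 1.85) in ESC-2i. NSC was 4.90-fold (3.48 to 6.97) above ESC-2i and 3.92-fold (2.70 to 5.79) above ESC-FCS, and the ESC-2i pools, at 3.36 and 4.59, lay between the single ESC-2i cells and NSC. The ESC cultures overlapped in their batches, at 1.15 and 1.65 against 0.998 and 2.80. It was the only one of the 10 genes with more than 1 3′ end that took at least 10% of its molecules. The main site (chr10:127517318) took 79.2% of its molecules, and a further site at the annotated end of the gene (chr10:127517123) took 11.7%. Of the molecules at these 2 sites the more distal one had 14.3% in NSC (14 of 98, exact binomial interval 8.04 to 22.8), 14.3% in ESC-FCS (5 of 35, 4.81 to 30.3) and 8.70% in ESC-2i (4 of 46, 2.42 to 20.8). Those intervals overlapped, so no difference in the use of these 2 sites was read at this depth. Another site, inside the terminal exon (chr10:127517617), took 6.09% of all Shmt2 molecules, under the 10% limit. It had 9.62% in ESC-2i (5 of 52, 3.20 to 21.0), 10.0% in ESC-FCS (4 of 40, 2.79 to 23.7) and 2.86% in NSC (3 of 105, 0.593 to 8.12). Its use was not tested between populations.

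**Figure D2:**
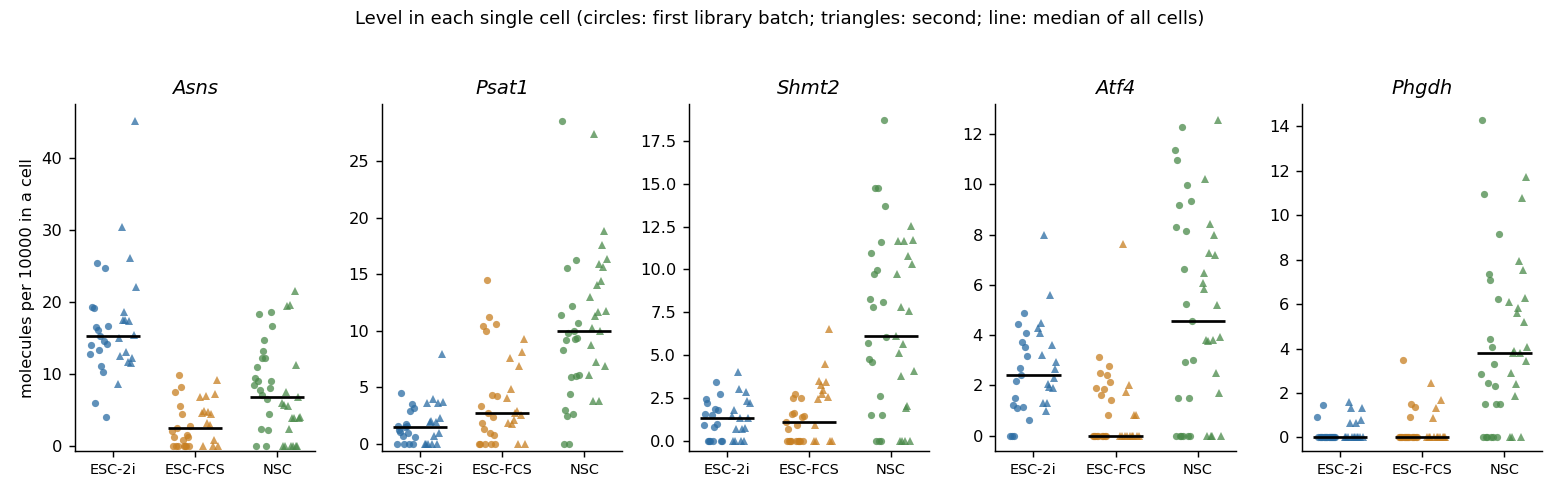
Molecules per 10000 (y axis) in each single cell for Asns, Psat1, Shmt2, Atf4 and Phgdh, with cells grouped by population and black lines at the median. Every ESC-2i cell held Asns, and Phgdh was at 0 in most ESCs and had a median of 3.79 in NSCs.

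Atf4 (chr15:80255184-80257541) was at 4.74 (3.71 to 5.97) in NSC from 72 molecules, at 2.50 (2.01 to 3.06) in ESC-2i from 92 and at 1.01 (0.643 to 1.52) in ESC-FCS from 23. It was found in 30 of 33 ESC-2i cells, 15 of 33 ESC-FCS cells and 31 of 41 NSCs, with highest cells at 8.00, 7.62 and 12.6. The main ESC-FCS cells were 2.46-fold (1.55 to 4.07) below ESC-2i, but the ESC-FCS control cells were at 2.15 and the ESC-FCS pool at 2.62, beside 3.40 and 2.63 in the ESC-2i pools, so a 2-fold difference was not seen outside the main cells. NSC was 1.90-fold (1.37 to 2.61) above ESC-2i, short of the 2-fold limit, and 4.67-fold (2.89 to 7.83) above ESC-FCS. All batches kept this order, at 4.89 and 4.58 for NSC, 2.01 and 2.94 for ESC-2i and 1.07 and 0.933 for ESC-FCS. The order of Atf4 thus differed from that of Asns, which had its highest level in ESC-2i.

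Ddit3 (chr10:127290774-127296288) encodes CHOP, a C/EBP-family factor induced through ATF4. It had 13, 7 and 12 molecules in the 3 populations, for levels of 0.353 (ESC-2i), 0.309 (ESC-FCS) and 0.790 (NSC). In ESC-2i 12 of the 13 molecules came from the second batch, 5 of them in cell F3, and in ESC-FCS all 7 came from the first. NSC was 2.24-fold (0.934 to 5.32) above ESC-2i, an interval that includes no difference. The 3′ end of Ddit3 faces that of Mars on the other strand, and no antisense molecules were assigned to any of the 10 genes. Trib3 (chr2:152337422-152344032) encodes a pseudokinase that is induced by ATF4 and CHOP and limits their activity. It had 2 molecules in ESC-2i, 0 in ESC-FCS, which allows a level of up to 0.132, and 15 in NSC (0.988, 0.553 to 1.63), 5 of them in cell H4. These counts were under the limit of 20 molecules for reading a ratio, and the ESC-2i pools had levels of 0.417 and 0.424, above the single cells.

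Chac1 (chr2:119351229-119354381) encodes an enzyme that degrades glutathione and is a target of the ATF4 and CHOP axis. It had 23 molecules in NSC (level 1.51, 0.960 to 2.27), 7 in ESC-FCS (0.309) and 4 in ESC-2i (0.109). The ESC molecules lay in few cells. All 4 of ESC-2i were in cell F3, where an equal share per molecule would give 3.74 cells, and the 7 of ESC-FCS were in 3 cells against 6.11 by an equal share. The 23 molecules of NSC lay in 16 cells, close to the 16.7 by an equal share. NSC was 13.9-fold (4.76 to 55.5) above ESC-2i and 4.90-fold (2.04 to 13.5) above ESC-FCS.

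Cell F3 of ESC-2i, picked out after its Chac1 molecules were seen, also held 12 Atf4 molecules, the most of any cell in the study's main populations, with 5 of Ddit3, 6 of Shmt2, 3 of Psph, 2 of Phgdh and 28 of Asns. It had molecules of 9 of the 10 genes and 14998 molecules in all, the 7th deepest ESC-2i cell. In ESC-FCS the cells with the most Chac1 were H12, with 4 of Chac1, 10 of Psat1, 9 of Asns, 8 of Shmt2 and 3 of Sesn2, and B12, with 2 of Chac1, 18 of Psat1, 7 of Asns and 2 of Ddit3. H12 and B12 had 12325 and 12412 molecules and were the 4th and 3rd deepest ESC-FCS cells. In NSC the cell with the most Chac1, G6, had 5 of Chac1, 14 of Psat1, 9 of Asns, 6 each of Phgdh and Shmt2 and 5 of Psph, and was the 2nd deepest with 7952 molecules. These cells, picked for high counts, were thus among the deeper ones. Other cells with Chac1 lay at both high and low ranks of depth. The other ESC-FCS cell with Chac1, B11, had 1 molecule of it and 4026 in all, the 24th deepest. Its summed level of the 10 genes, 34.8 per 10000, was the highest in ESC-FCS. In NSC the other cells with Chac1 ran from B6, the deepest cell, with 2 molecules of it, to B2, the 40th deepest, with 1. The part of depth in these counts was not tested.

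Sesn2 (chr4:132492032-132510501) encodes sestrin 2, a leucine-binding inhibitor of mTORC1 signalling. It was the one gene with no population past 2-fold, at 0.838 (0.505 to 1.31) in ESC-FCS, 0.706 (0.461 to 1.03) in ESC-2i and 0.527 (0.227 to 1.04) in NSC. The second batch was above the first in each population, at 0.980 against 0.401 for ESC-2i, 1.45 against 0.384 for ESC-FCS and 0.694 against 0.376 for NSC.

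Across the 10 genes, those with at least 20 molecules over a pair of populations were read against all genes at the same limit. Between ESC-FCS and ESC-2i 8 genes could be compared. One was at least 2-fold higher (Psat1, in single cells and not in the pools), where the background is 8.17% of 5007 genes. Another 2 were lower (Asns, and Atf4 in the main cells alone), where it is 14.5%. Between NSC and ESC-2i 6 of 9 were higher (Ddit3, Phgdh, Psat1, Psph, Shmt2 and Chac1), with 19.3% of 4803 genes, and 1 was lower (Asns), with 24.3%. Between NSC and ESC-FCS 7 of 8 were higher (Atf4, Phgdh, Psat1, Psph, Shmt2, Asns and Chac1), with 20.9% of 3600 genes, and 0 were lower, with 18.4%. The median log2 ratio of the genes compared was 2.09 for NSC over ESC-2i and 1.93 for NSC over ESC-FCS, beside 0.0081 and 0.075 for all genes. For ESC-FCS over ESC-2i it was 0.22, beside -0.06. These comparisons share populations and are not independent of each other. All counts rest on the main single cells. Ddit3, Phgdh and Chac1 had 13, 10 and 4 molecules in ESC-2i, so they reached the limit of 20 only with those of NSC. The same held against ESC-FCS for Phgdh, Psph and Chac1, with 10, 14 and 7. The interval of Ddit3 over ESC-2i, 0.934 to 5.32, includes no difference. The ESC-2i pools lay on either side of the NSC level in Psat1, and the ESC-FCS control cells and pool had more Atf4, Phgdh and Asns than the main ESC-FCS cells. Asns was at 5.92 and 6.03 there, beside 8.03 in NSC, so its NSC excess was smaller than against the main cells. The second batch of control cells, at 7.23, lay above the second NSC batch, at 6.52. Psat1 was at 4.80 in control cells and 4.13 in the ESC-FCS pool, beside 9.48 in NSC.

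Both NSC batches lay above both ESC-2i batches in 7 of 9 genes, where the background is 28.3%, and below in 1, where it is 33.5%. Against the main ESC-FCS cells they lay above in 7 of 8, where it is 31.2%, and below in 0, where it is 28.2%. ESC-FCS batches lay above those of ESC-2i in 1 of 8 genes (background 21.4%) and below in 2 (27.5%).

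**Figure D3:**
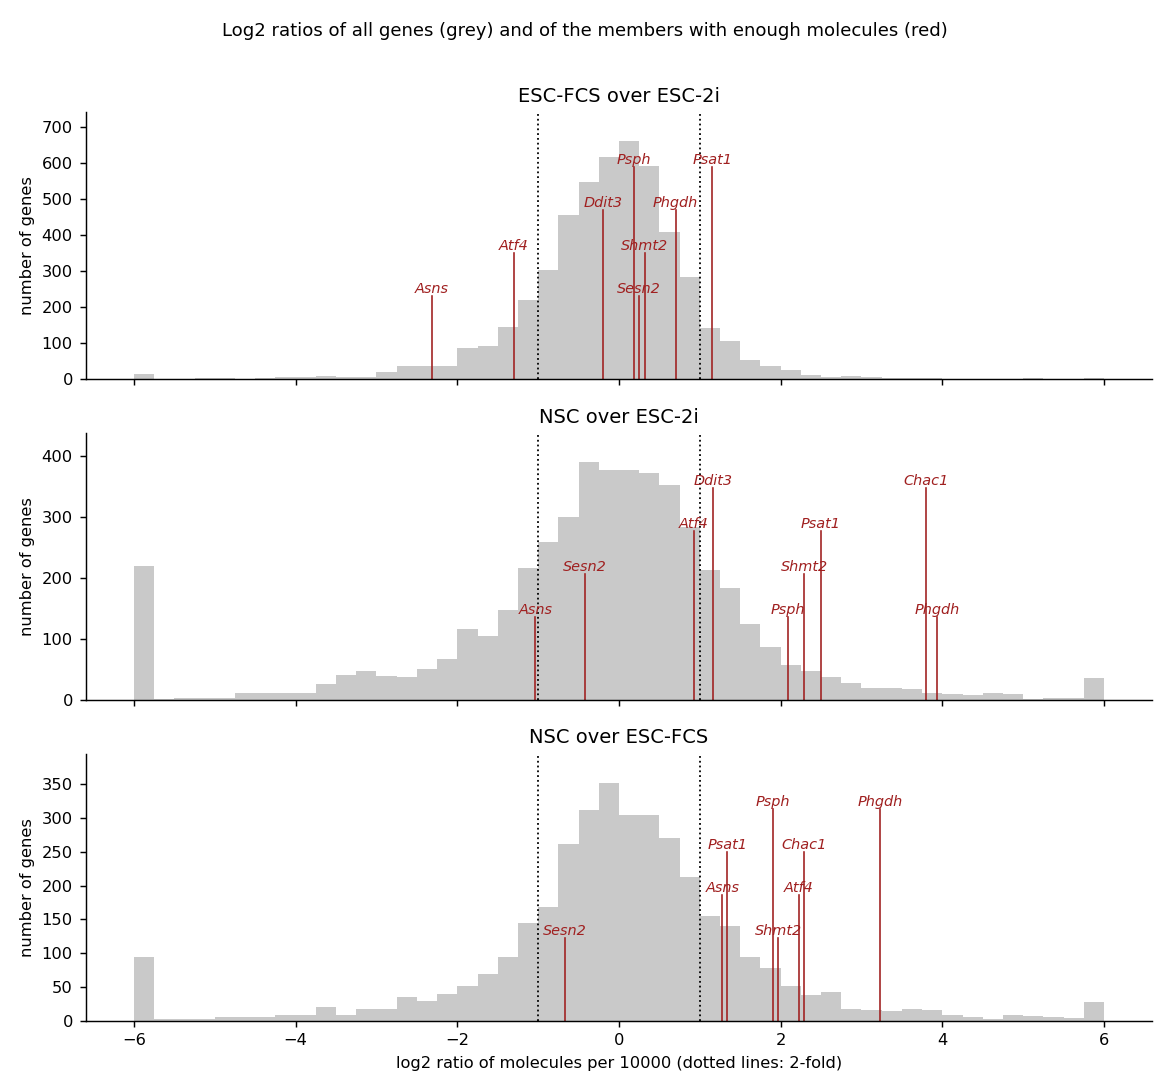
Distribution of log2 ratios between populations (x axis; dotted lines mark 2-fold) over all genes with at least 20 molecules (grey, number of genes on the y axis; the end bars hold all values beyond the axis) with the compared members in red. Asns and Atf4 lie left of the 2-fold line for ESC-FCS over ESC-2i, while 7 of 8 members lie right of it for NSC over ESC-FCS.

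Genes that sense or extend the pathway were described from further lists, whose counts stand against the same shares over all genes. Of 8 eIF2 kinases, phosphatase subunits and related genes, 4, 3 and 1 could be compared between the ESC cultures, between NSC and ESC-2i and between NSC and ESC-FCS, and 0 passed 2-fold in each. The shares over all genes, higher and lower, were 8.17% and 14.5%, 19.3% and 24.3%, and 20.9% and 18.4%. With so few genes a count of 0 says little beside them. Among 7 partners of ATF4 and other stress factors, Atf5 was 4.55-fold (1.81 to 12.4) higher and Nfe2l2, the oxidative stress factor NRF2, 3.85-fold (1.19 to 19.8) lower in NSC than in ESC-2i, the only 2 that could be compared. Nfe2l2 was also 2.15-fold (0.956 to 5.47) lower in ESC-FCS than in ESC-2i.

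Of 14 other ATF4 target effectors, 6 could be compared between NSC and ESC-2i and 4 were higher (background 19.3%), led by Gpt2 at 7.48-fold (4.66 to 12.4) and Pck2 at 5.82-fold (3.39 to 10.4). Gpt2 and Pck2 encode mitochondrial enzymes of alanine and phosphoenolpyruvate metabolism. Against ESC-FCS 4 of 6 were higher (20.9%), led by Aldh18a1, of proline synthesis, at 11.4-fold (3.46 to 59.5) and Pck2 at 10.2-fold (4.60 to 26.8). Between the ESC cultures 1 of 5 was lower in ESC-FCS (14.5%), Cth, which makes cysteine, at 2.01-fold (1.00 to 4.39).

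Of 10 amino acid transporters, 6 of the 7 that could be compared were higher in NSC than in ESC-2i (background 19.3%), led by Slc38a2, a sodium-coupled transporter of small neutral amino acids, at 26.0-fold (12.0 to 66.8) and Slc1a4, which carries serine and alanine, at 12.1-fold (4.97 to 35.6). Slc1a5, a glutamine transporter, was 3.71-fold (1.14 to 19.1) lower. Against ESC-FCS 4 of 6 were higher (20.9%), led by Slc7a1, which carries cationic amino acids, at 13.4-fold (6.74 to 30.4) and Slc7a5, the light chain of a leucine transporter, at 5.97-fold (2.38 to 17.9). In ESC-FCS 2 of 5 were higher than in ESC-2i (8.17%) and 2 were lower (14.5%), and Slc3a2 was within 2-fold. Slc38a2 was at 5.47 from 124 molecules in ESC-FCS and at 0.190 from 7 molecules in ESC-2i, a ratio of 28.8 (13.6 to 73.1). Slc38a1 was 2.66-fold (1.19 to 6.23) higher, while Slc7a1 was 3.15-fold (1.52 to 7.31) and Slc1a5 2.08-fold (0.918 to 5.29) lower. Among the main single cells ESC-2i thus had the highest Asns level and the lowest Slc38a2 level of the 3 populations. Unlike Asns, Slc38a2 was not read in the control cells and pools.

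All 20 cytosolic aminoacyl-tRNA synthetases, which load amino acids onto tRNAs, could be compared between the ESC cultures and between NSC and ESC-2i. Wars was 2.27-fold (1.21 to 4.57) lower in ESC-FCS and the other 19 were within 2-fold. In NSC 5 of 20 were higher than in ESC-2i, a share near the 19.3% of all genes, led by Nars at 3.50-fold (2.44 to 5.05) and Iars at 3.30-fold (1.91 to 5.77), and Qars was 2.12-fold (1.48 to 3.12) lower. Against ESC-FCS 5 of 19 were higher in NSC, again near the share of all genes (20.9%), led by Wars at 3.21-fold (1.61 to 6.76) and Cars at 2.84-fold (1.64 to 5.08).

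Of 13 genes of folate one-carbon metabolism and glycine breakdown in NSC over ESC-2i, 4 were higher (background 19.3%) and 5 lower (24.3%). Mthfd2, which acts after SHMT2 in mitochondria, was 9.30-fold (4.85 to 19.3) higher and Gldc, of the glycine cleavage system, 3.14-fold (1.59 to 6.30). Tdh, the threonine dehydrogenase of mouse ESCs, had 0 molecules in NSCs, 160 in ESC-FCS and 539 in ESC-2i, and its NSC limit of 3 molecules lay at least 74.1-fold below ESC-2i and at least 35.7-fold below ESC-FCS. Amt, also of glycine cleavage, was 3.97-fold (1.92 to 9.52) lower in NSC than in ESC-2i. Against ESC-FCS 1 of 13 was higher in NSC (20.9%), Mthfd2 at 4.58-fold (2.51 to 8.83), and 4 were lower (18.4%), among them Shmt1, the cytosolic counterpart of Shmt2, at 2.34-fold (1.21 to 4.89). Between the ESC cultures Gldc was 6.60-fold (3.84 to 12.0) and Mthfd2 2.03-fold (0.888 to 4.75) higher in ESC-FCS (2 of 13, background 8.17%), while 3 were lower (14.5%), with Amt at 2.96-fold (1.71 to 5.44) and Mthfd1 at 2.11-fold (1.47 to 3.10).

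Chaperones and other genes of the unfolded protein response of the endoplasmic reticulum gave counts near the shares over all genes. In NSC over ESC-2i 1 of 7 was higher (background 19.3%), Herpud1 at 8.89-fold (3.50 to 26.8). Against ESC-FCS 2 of 7 were higher (20.9%), Herpud1 at 4.10-fold (1.76 to 10.7) and Sdf2l1 at 2.24-fold (0.941 to 5.57). Between the ESC cultures 1 of 8 was higher in ESC-FCS (8.17%), Creld2 at 4.33-fold (1.61 to 13.5).

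Variability between cells was tested within each population against the technical noise of ERCC spike-in molecules, by a fit of the squared coefficient of variation (CV2) with a biological margin of 0.25 and a limit on the adjusted p of 0.1. None of the genes tested was called. The counts were 0 of 6 for ESC-2i (background 0.608% of genes), 0 of 5 for ESC-FCS (3.36%) and 0 of 6 for NSC (10.7%). At an unadjusted p under 0.05 the counts were 0, 1 and 0, beside 2.57%, 7.85% and 16.9% of all genes. The one was Sesn2 in ESC-FCS, with a mean of 0.625 scaled molecules, a CV2 of 4.43 where technical noise gives 2.25, p = 0.00401 and an adjusted p of 0.114 by the CV2 test. Asns, the most abundant gene, had a CV2 of 0.236 in ESC-2i, where technical noise gives 0.0925. Genes of the wider lists that were called were Slc3a2 in ESC-2i (CV2 2.17, adjusted p = 0.000115), Mars in ESC-FCS (CV2 2.18, adjusted p = 0.0319) and Farsb, Cars and Rars in NSC (CV2 2.36 to 2.87), all by the same CV2 test. Rars and Cars had adjusted p values of 0.0550 and 0.0397 there, and Farsb 0.00550. Of the NSC markers, Fabp7 (CV2 1.43, adjusted p = 2.38e-11) and Olig2 (CV2 1.42, adjusted p = 0.0558) were called in NSC by the CV2 test.

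Covariation over cells was described with Pearson's r on log2(molecules + 1), after scaling each cell to the median total of its population, for genes whose mean reached 0.5 molecules per cell. In ESC-2i 6 of the 10 genes gave 15 pairs with a median r of 0.133 over 33 cells. In ESC-FCS 5 genes gave 10 pairs with a median of 0.109 over 33 cells, and in NSC 7 genes gave 21 pairs with a median of 0.124 over 41 cells. The medians of all gene pairs were 0.0110, 0.0225 and 0.0083. Pairs with an r of at least 0.3 were 2 in each population, where the share over all pairs is 5.87%, 7.65% and 4.41%. All pairs of a population share its cells and their depth, and such weak values in sparse counts are no finding by themselves.

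The highest pair was Psph and Asns in NSC, with r = 0.47 over 41 cells and 0.56 and 0.43 in the batches. It was followed by Shmt2 and Asns in ESC-FCS, with r = 0.40 over 33 cells and 0.50 and 0.20 in the batches. In ESC-2i Asns and Sesn2 gave r = 0.35, which dropped to 0.15 without the 2 cells farthest from the median. Shmt2 and Sesn2 gave r = 0.30 in ESC-2i, with 0.29 and 0.30 in the batches, and 0.34 in ESC-FCS, with -0.16 and 0.39. Shmt2 and Asns gave r = -0.12 in ESC-2i and 0.18 in NSC. Atf4 mRNA and Asns mRNA showed little covariation, with r of 0.030 over NSCs, -0.11 over ESC-FCS cells and -0.0044 over ESC-2i cells. With other members the r of Atf4 ran from -0.084 (Psat1 in NSC) to 0.18 (Sesn2 in ESC-2i).

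**Figure D4:**
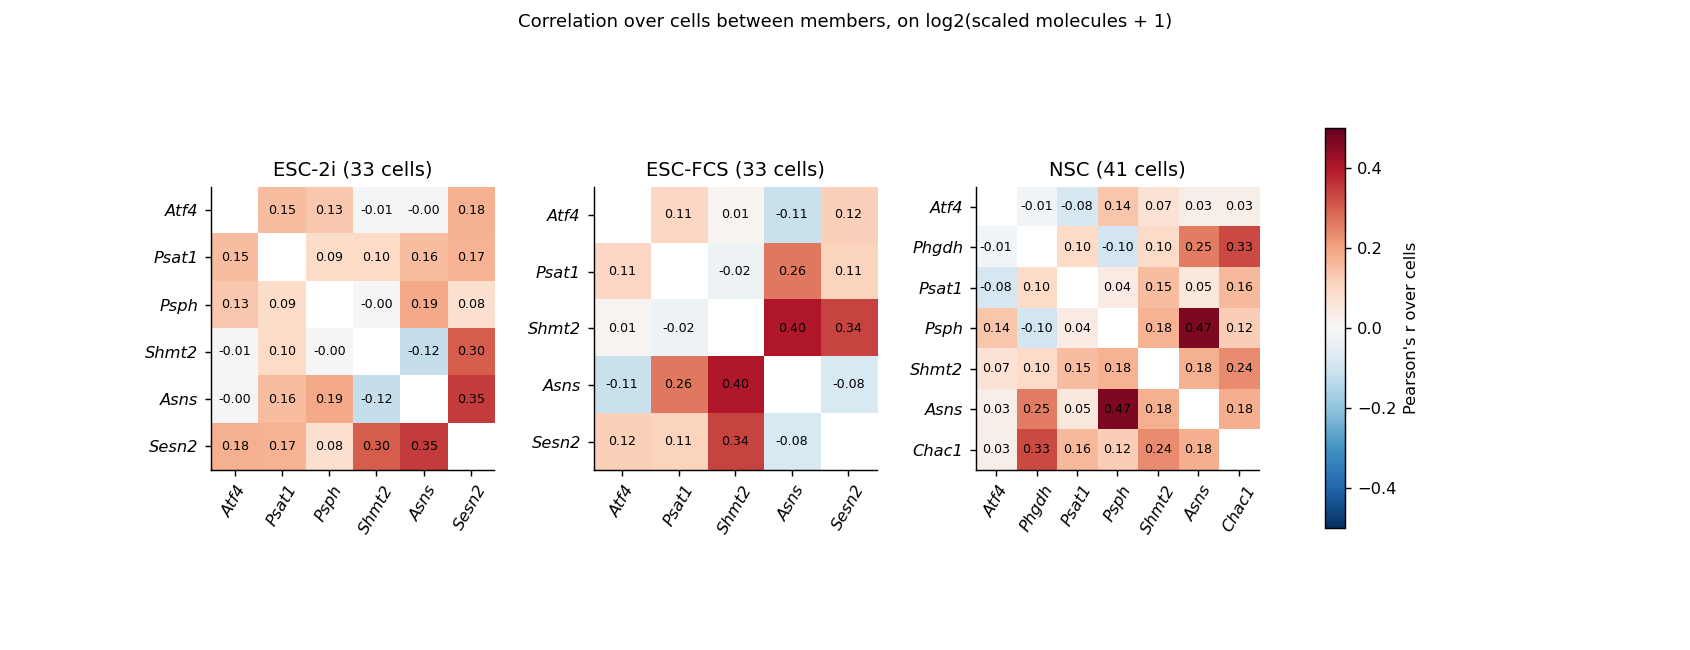
Pearson's r over cells (colour and printed value) for each pair of members whose means reached 0.5 molecules per cell, with 1 panel per population. Psph and Asns in NSC gave the highest value, 0.47, and the row of Atf4 stayed between -0.11 and 0.18.

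Among 1093 genes measured at this level in all populations, Eif4ebp1 followed the summed level of the 10 genes most closely, with a mean r of 0.40 (0.46 over NSCs, 0.41 over ESC-FCS cells and 0.35 over ESC-2i cells). It encodes the translation repressor 4E-BP1 and was on the list of other ATF4 target effectors. As the highest of 1093 genes ranked in these same cells, its r is no test of a link. In ESC-2i most molecules of the sum were from Asns. Psmd1, Ctnnb1, Stk4 and Kpnb1 came next with mean r of 0.34, 0.32, 0.32 and 0.32, and the median over the genes compared was 0.015. Eif4ebp1 was within 2-fold between all populations, at 7.28, 8.82 and 10.9 molecules per 10000. The summed level of the members had r of 0.022 over NSCs, -0.093 over ESC-FCS cells and -0.055 over ESC-2i cells with the total molecules of a cell, and of -0.12, -0.39 and 0.54 with its mitochondrial share.

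The control cells and pools put these values beside libraries made apart from the main cells. The paper reports the ESC-FCS pool and the control cells as technical controls of the same day, so they are not separate experiments. Of 7 genes that could be compared between ESC-FCS control cells (42 cells, 223055 molecules) and the main ESC-FCS cells, 3 were past 2-fold. Atf4 was 2.12-fold (1.27 to 3.65) and Phgdh 2.54-fold (1.18 to 5.93) higher, where the background is 15.9% of genes, and Sesn2 was 2.67-fold lower, where it is 9.23%. Asns was 1.79-fold (1.34 to 2.41) higher and Psat1 1.28-fold (0.953 to 1.72). The Atf4 level of the control cells was 2.15 (1.59 to 2.85), an interval that holds the ESC-2i level of 2.50, so the lower Atf4 of the main ESC-FCS cells was not shown by the second set of cells from that medium. The Asns level of the control cells, 5.92 (4.95 to 7.02), remained below ESC-2i.

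In the pools, lysed and cleaned up in another way than single cells, Asns was at 15.4 and 14.7 in the ESC-2i pools and at 6.03 (4.95 to 7.28) in the ESC-FCS pool, 2.49-fold lower than the mean of the former. Atf4 was at 3.40 and 2.63 against 2.62. Psat1 was at 11.6 and 7.92 in the ESC-2i pools and at 4.13 (3.24 to 5.19) in the ESC-FCS pool, 2.37-fold lower, whereas single ESC-FCS cells were above single ESC-2i cells. Trib3 was 3.77-fold lower in the ESC-FCS pool, and Phgdh 3.02-fold and Psph 3.10-fold higher. The Trib3 ratio rests on 2 molecules in the ESC-FCS pool, and that of Psph on 8 there and 8 and 6 in the ESC-2i pools. These 5 genes of 8 were past 2-fold, where the background is 19.3% higher and 34.5% lower, so the count was near the shares over all genes. Between the 2 ESC-2i pools 0 of 7 were past 2-fold, where the background is 17.1%.

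The ESC-FCS levels of Psat1 were alike in single cells, control cells and pool, at 3.75, 4.80 and 4.13, and the ESC-2i levels were not. The ESC-2i pools were 5.80-fold above single ESC-2i cells in Psat1, 2.81-fold in Shmt2, 2.45-fold in Phgdh and 7.75-fold in Trib3, and 3.77-fold below them in Psph and 2.63-fold in Ddit3. Between ESC-2i pools and cells 4 of 9 genes were higher, where the background is 38.8% of 8495 genes, and 2 were lower, where it is 14.9%. Asns and Atf4, at 0.914 and 1.21 times the single-cell level, were among the genes within 2-fold. Between the ESC-FCS pool and cells 2 of 7 were higher, Atf4 at 2.59-fold and Phgdh at 4.56-fold (background 23.7%), and 0 were lower (10.0%). The lower Asns level of ESC-FCS was thus present in single cells, control cells and pools, with the ESC-FCS control cells and pool from the same day. The higher Psat1 level of ESC-FCS was present in both sets of single cells and not in the pools.

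**Figure D5:**
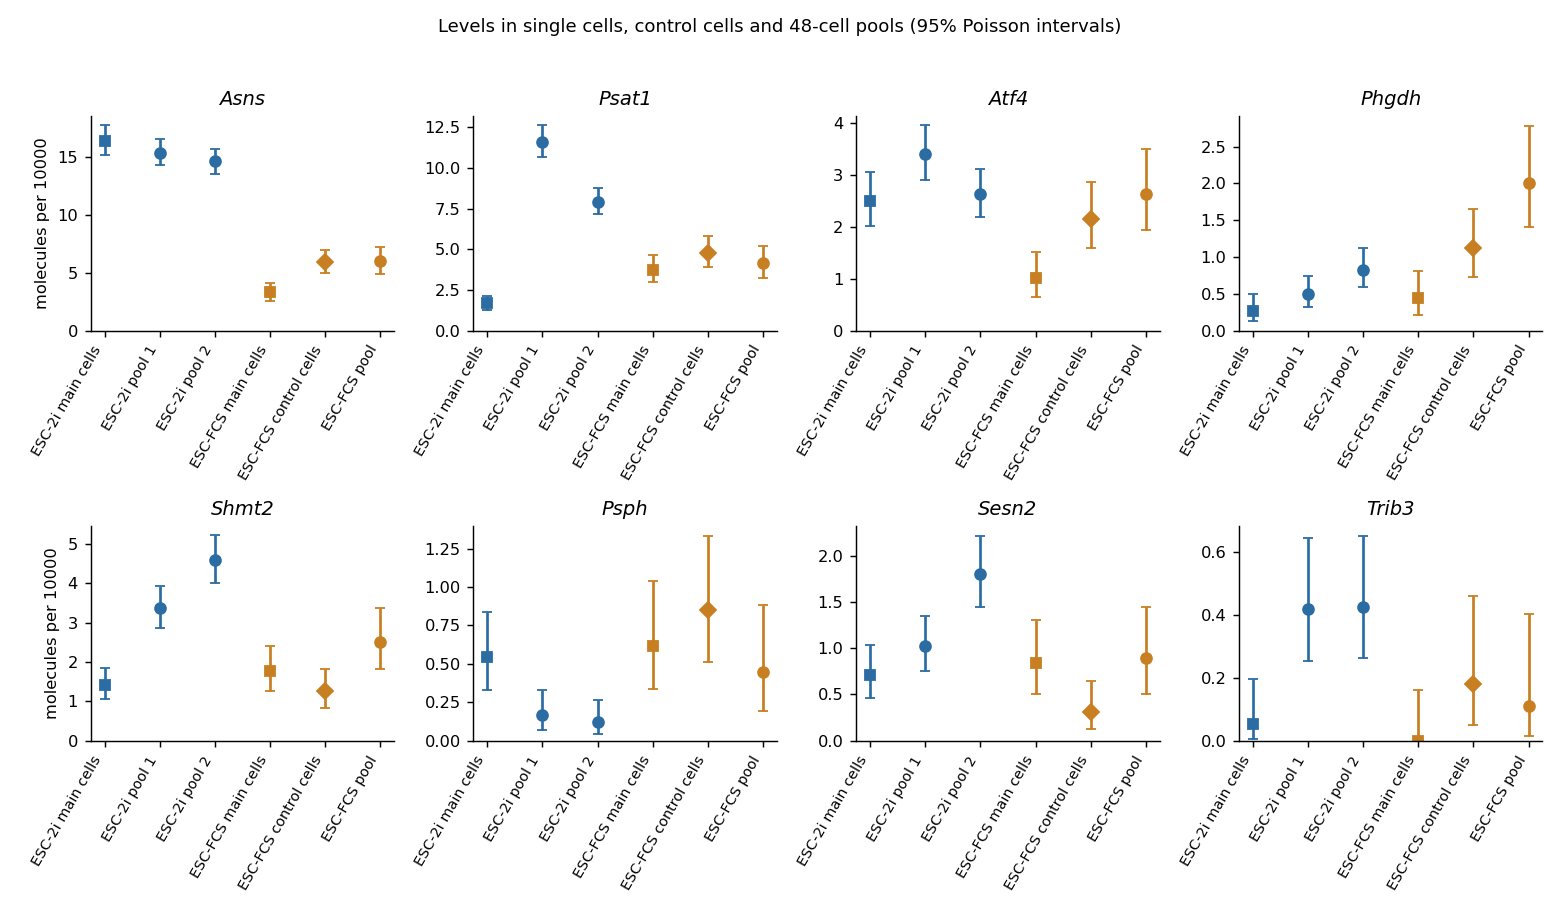
Molecules per 10000 (y axis, from 0) with 95% Poisson intervals in ESC-2i main cells and pools (blue) and ESC-FCS main cells, control cells and pool (orange). Squares are main cells, diamonds control cells and circles pools. Asns is higher in every ESC-2i set, and Psat1 is higher in ESC-FCS among single cells and higher in ESC-2i among pools.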

How the data were processed

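BATSeq libraries of single cells and 48-cell pools were sequenced and processed by the authors, who mapped reads to GRCm38 with ERCC sequences, kept unique reads with a mapping quality of at least 30, merged 3′ ends, and deposited counts of molecules (unique molecular identifiers) and of reads per 3′ end and cell, and counts of molecules per gene for 107 cells. The submitters' notes also name HTSeq and R 3.0.2. The deposited counts were used as they stand. Gene sums of the 3′ end files differed from the gene table in 4 entries. Cells in the gene table were pooled per population. Control cells needed 1000 molecules. Ratios were read for genes with at least 20 molecules over both sets, with exact Poisson and conditional binomial intervals at 95%, and a limit of 2-fold. A count of 0 was taken to allow 3 molecules. The CV2 test used ERCC molecules, p-values adjusted by Benjamini-Hochberg over all genes tested. Intervals and tests were computed with scipy 1.17.1 and statsmodels 0.14.6 on tables held in pandas 2.3.3 (Python 3.11.15), and the variance and ratio steps were tested on simulated data. Libraries carried between 1079 and 21050 molecules in the main cells, 1323 to 14547 in the control cells, 479483 and 494799 in the ESC-2i pools and 179155 in the ESC-FCS pool. Named genes of the wider lists were the 2 highest and the 2 lowest ratios past 2-fold in each comparison, plus those called variable, and the 5 genes most like the members. The members and lists were chosen with earlier results of these data known. The deposited table of all 3′ ends over cells was not used, since the files of each cell were read.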

Additional observations from a re-analysis of the deposited data

Results flagged for a closer look

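The ratio of Psat1 between ESC-FCS and ESC-2i was 2.23 in single cells and 0.423 in pools. Both ESC-FCS batches of single cells lay above both ESC-2i batches, and the ESC-FCS pool lay below both ESC-2i pools. The difference between the 2 ratios was not tested, because each population came from 1 culture as far as the labels tell and there was 1 ESC-FCS pool. The ratio of Chac1 was 2.84 in single cells, from 7 and 4 molecules, and 0.491 in pools, from 1 molecule in the ESC-FCS pool and 8 and 3 in the ESC-2i pools. It was singled out for the same opposite order, which was not tested either, and the single-cell interval of 0.723 to 13.2 includes no difference. Pools and single cells differed in lysis and clean-up, whose part in these values was not tested.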

How the results depend on the processing

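Directions of the called member ratios (10 genes, 3 comparisons) were the same under every alternative run. The members past 2-fold between ESC-FCS and ESC-2i, 3 as reported, were 6 with reads in place of molecules, where Phgdh, Psph and Sesn2 were also higher (log2 ratios 1.44, 1.83 and 1.03), and 5 with no filter on low counts. Between NSC and ESC-FCS they were 4 in the second library batch alone, where fewer genes had enough molecules and Asns was within 2-fold (log2 ratio 0.55). In that batch Ddit3 in NSC over ESC-2i had a log2 ratio of 0.16, and 0.59 with reads. Between NSC and ESC-2i they were 5 to 8 under all alternatives, beside 7. For control cells over ESC-FCS cells they were 5 with no filter and 1, Asns, in the first batch alone. Without 1 or the other ESC-2i pool (without ESC-2i pool replicate 1 or 2) 4 genes were past 2-fold, and with replicate 2 alone Psat1 was not among them. Members called variable were 1 with a CV2 margin of 0 in each population, Asns in ESC-2i and NSC and Sesn2 in ESC-FCS, and 2 in ESC-2i with no limit on the mean, Ddit3 and Chac1. The median r of member pairs in ESC-2i, 0.133 as reported, was 0.0584 as Spearman's rho, 0.0420 without the cell with the highest share of member molecules and 0.0806 without the cell with the most Chac1, an alternative chosen after seeing the data. In ESC-FCS it was 0.0652 in the second batch. In NSC, where the batches spread little, it was 0.158 as Spearman's rho, 0.148 without the log, 0.153 in cells with at least 2000 molecules, 0.148 and 0.155 in the batches, 0.101 without the cell with the highest member share and 0.0891 without the cell with the most Chac1. The causes were not tested. No paired analysis was possible because the replicate numbers name cells or libraries of separate populations and mark no shared culture, and no test was made between populations. Low molecule counts limit Trib3, Chac1, Ddit3 and Phgdh in ESCs.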
